A study of Drosophila melanogaster with 2 samples.

Results

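The H3K27ac peaks described here lie in the pericentric ends of 4 chromosome arms of Drosophila melanogaster, in male pupal wings. A peak was taken when its start lay above 22000000 on 2L, above 22900000 on 3L or above 22300000 on X, or below 4200000 on 3R, all in build dm6. This gave 156 of the 14461 peaks of replicate 1 and 196 of the 26420 peaks of replicate 2. The 4 segments span 11.97 Mb, counted to the last annotated gene or peak of each arm, and they hold 131 protein-coding genes. The remaining 95.07 Mb of the same arms, with 10860 protein-coding genes and 11014 and 19913 peaks, served for comparison. The boundaries are fixed positions and use no measured value.

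The mark, acetylated lysine 27 of histone H3, is typical of promoters and enhancers in use. CUT&RUN maps it by tethering a nuclease to an antibody, which then cuts the marked chromatin free. The nuclei were lightly crosslinked for 1 min. Both replicates were male wings of the transgenic line D2, whose transgene is not described in the sources used here, reared at 25 °C, at 67% of pupal development, with 35 to 45 wings each. No other genotype, stage or tissue is analysed here, so every comparison runs between parts of the genome within these libraries. The 2 lists form a single group. No test over samples was run and no p-value is given, since an exact test on 2 values cannot reach a usual threshold. Differences are set against the gap between the replicates. Peaks, genes and arms are not replicates. Each list describes a whole tissue, so that fewer cells with a mark and less mark per cell cannot be told apart.

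Pericentric heterochromatin is the compact, repeat-rich chromatin beside the centromeres. It is packed by HP1 proteins bound to methylated lysine 9 of histone H3, a modification that excludes acetylation at that residue and is classically tied to silencing of genes moved next to it. The fly nevertheless has essential genes that reside there and work there, among them lt, cta and vtd. Many carry long introns filled with transposon remnants.

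The lists differ in depth. Solving the peak values gave a genome-wide background of 13.8 fragments in replicate 1 and 27.1 in replicate 2, and the smallest fold enrichment listed was 1.49 and 1.31. The fold enrichment is the authors' value for each peak, its summit pileup of fragments over the caller's background. Genes are called marked here when each list has a peak within 500 bp of either end, and these peaks need not overlap each other. Of 12 wing identity genes, 7 were marked (58.3%), against 39.3% of the 13922 protein-coding genes on 6 arms. Markers of other cells were marked in 1 of 6 muscle genes, 1 of 4 neuronal, 1 of 4 hemocyte, 1 of 4 fat body and 1 of 2 tracheal genes. None of these wing or other markers lies in the segments.

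Peaks were sparse in the pericentric segments. Replicate 1 held 13.0 peaks per Mb there and 116 per Mb in the rest of the arms, a ratio of 0.113. Replicate 2 held 16.4 and 209 per Mb, a ratio of 0.0782. The mean ratio was 0.0954 ± 0.0243 (SD, n = 2), and the distance from 1 far exceeded the gap between the replicates. By covered sequence, the ratios were 0.146 and 0.0856. Lengths were not corrected for assembly gaps or for repeats where fragments cannot be placed, and their part in the low density was not tested.

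The difference varied by arm. On 3L the ratio of peak density was 0.0517 in replicate 1 and 0.0344 in replicate 2, and on 3R it was 0.0489 and 0.0360. On 2L it was 0.279 and 0.255. On X it was 0.585 and 0.317, with the widest gap between the replicates. The order 3R and 3L below 2L below X held in both lists, while the replicate ranges of 3L and 3R overlapped. X is also the arm with the fewest peaks outside the segment, at 57.9 and 63.7 per Mb.

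Genes were sparse in the same places. The segments held 10.9 protein-coding genes per Mb and the rest 114, a ratio of 0.0958. Counted per gene, peaks stood at 1.19 in the segments and 1.01 in the rest in replicate 1, a ratio of 1.17. In replicate 2 they stood at 1.50 and 1.83, a ratio of 0.816. The mean of the ratios was 0.995 ± 0.253 (SD, n = 2), so that per gene no difference beyond the replicates was measured. By arm, this ratio was 0.741 in replicate 1 and 0.493 in replicate 2 on 3L, below 1 in both lists. It was above 1 in both lists on 2L, at 1.27 and 1.16, and on 3R, at 1.78 and 1.31. On X it was 1.85 and 1.00.

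**Figure D1:**
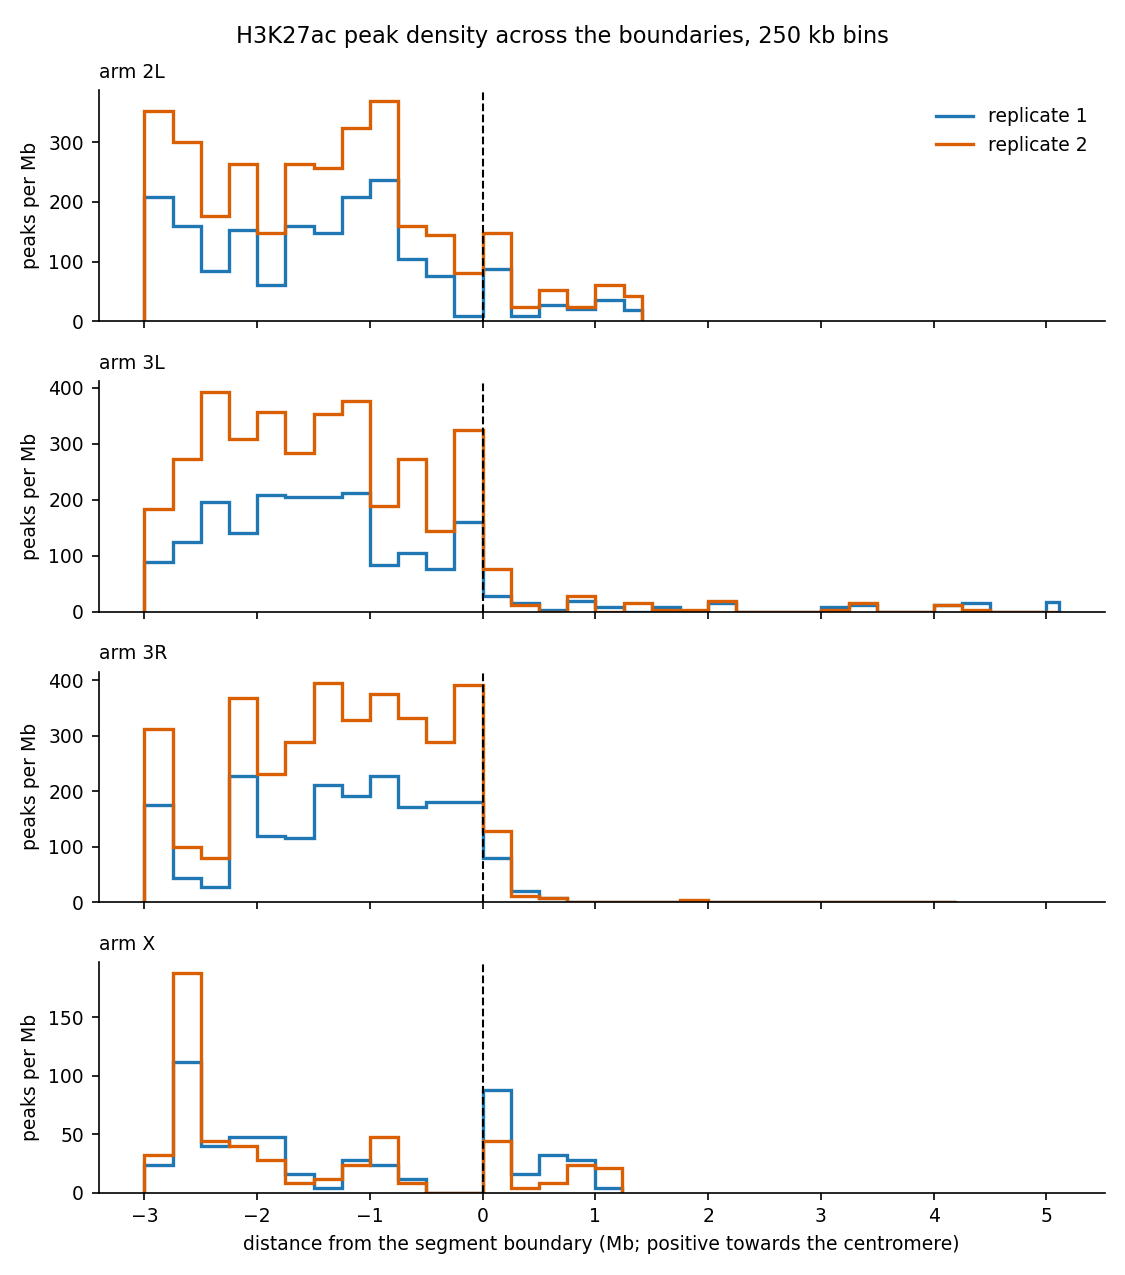
H3K27ac peaks per Mb in 250 kb bins, against the distance in Mb from the segment boundary (dashed line; positive values lie towards the centromere), for each arm and replicate. On 3L and 3R the density drops at the boundary, on 3R from 180 and 392 per Mb in the last bin outside to 80 and 128 in the first bin inside. On X the last bin outside holds 0 peaks in both lists.

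The fall was steep on both arms of the third chromosome. On 3L, the last Mb outside the boundary held 106 peaks in replicate 1 and 232 in replicate 2. The first Mb inside held 17 and 29, and the second held 4 and 6. On 3R, the last Mb outside held 190 and 347 peaks and the first Mb inside held 27 and 37. Most of the latter, 20 and 32, lay within 250 kb of the boundary. Beyond the first Mb of 3R, replicate 1 listed 0 peaks and replicate 2 listed 1, with a fold enrichment of 2.42, inside Myo81F, a myosin gene whose annotated span covers 1970 kb.

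X showed no such fall, and 2L a smaller one. The last Mb of X outside the segment held 9 and 14 peaks, and the first Mb inside held 41 and 20. The last 250 kb outside held 0 peaks in either list, although 21 protein-coding genes have their midpoint there. On 2L, the last Mb outside held 106 and 188 peaks and the first Mb inside held 36 and 62. Close to the 2L boundary the order turned, with 2 and 20 peaks in the last 250 kb outside and 22 and 37 in the first 250 kb inside.

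Peaks next to the boundaries had fold enrichments from 1.74 to 4.05, with 1 exception on X. The nearest peaks inside the 2L boundary lay at tio, with fold enrichments of 2.77 and 3.84, and the nearest outside lay near tsh (3.51) in replicate 1 and at CG2528 (2.35) in replicate 2. On 3L the nearest peaks inside lay at nrm (2.70) in replicate 1 and in BoYb (1.74) in replicate 2, and the nearest outside lay by slif (4.05) and at CG11131 (2.33). On 3R the peaks on both sides lay at beta-Man, inside at 2.85 and 2.18 and outside at 2.97 and 1.92. On X the nearest inside had 22.1 in replicate 1 and 2.49 in replicate 2, and the nearest outside, by DIP1, had 2.63 and 1.81.

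Long stretches carried no peak in either list. The longest ran from position 1 to 2446788 of 3R, 58.3% of that segment, and touched only the protein-coding gene Myo81F. The longest on 3L spanned 891 kb, from 25121791 to 26012625, and held FASN3, a fatty acid synthase gene, and lovit, a synaptic vesicle transporter gene. On 2L it spanned 168 kb and on X 191 kb. In the rest of the arms, the outer end and the boundary counted as edges, the longest stretch was 190 kb on 3L, 313 kb on 3R and 253 kb on 2L. On X it was 561 kb and ended at the boundary, and the longest between neighbouring peaks was 277 kb. The 3L and 3R stretches thus exceeded the longest of the same arms outside, and those of 2L and X did not. How much of these stretches fragments can be mapped to was not measured.

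Shared peaks, those overlapped by at least 1 bp of a peak in the other list, reached deep into 3L. The innermost lay at RpL15, a gene of the large ribosomal subunit, at 3L:27267395-27267924, 4.37 Mb inside the boundary, with fold enrichments of 3.04 and 2.13. On 3R the innermost lay at Parp1, which encodes the poly(ADP-ribose) polymerase, at 3R:3586641-3586978, 0.613 Mb inside (4.32 and 2.45). On 2L and X the innermost were intergenic, at 2L:23372702-23372968 (2.90 and 2.81) and X:23376260-23376431 (2.90 and 2.77). The last of these lay beyond the 17 annotated ribosomal RNA features of X.

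The peaks that were present had a higher median fold than those of the rest. In replicate 1 the median fold enrichment was 2.76 in the segments and 2.43 in the rest, and in replicate 2 it was 2.26 and 2.07. The mean ratio was 1.12 ± 0.0312 (SD, n = 2). By arm, replicate 1 gave 3.37 against 2.43 on 3L and 2.44 against 2.41 on X. Replicate 2 gave 2.28 against 2.07 and 2.10 against 2.06. The top 10% of each whole list took in 53 of the 156 segment peaks (34.0%) and 45 of the 196 (23.0%), against 9.22 and 9.78% of the peaks of the rest. The lowest 25% took in 10.3 and 11.2% of the segment peaks, against 25.0 and 24.8%.

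**Figure D2:**
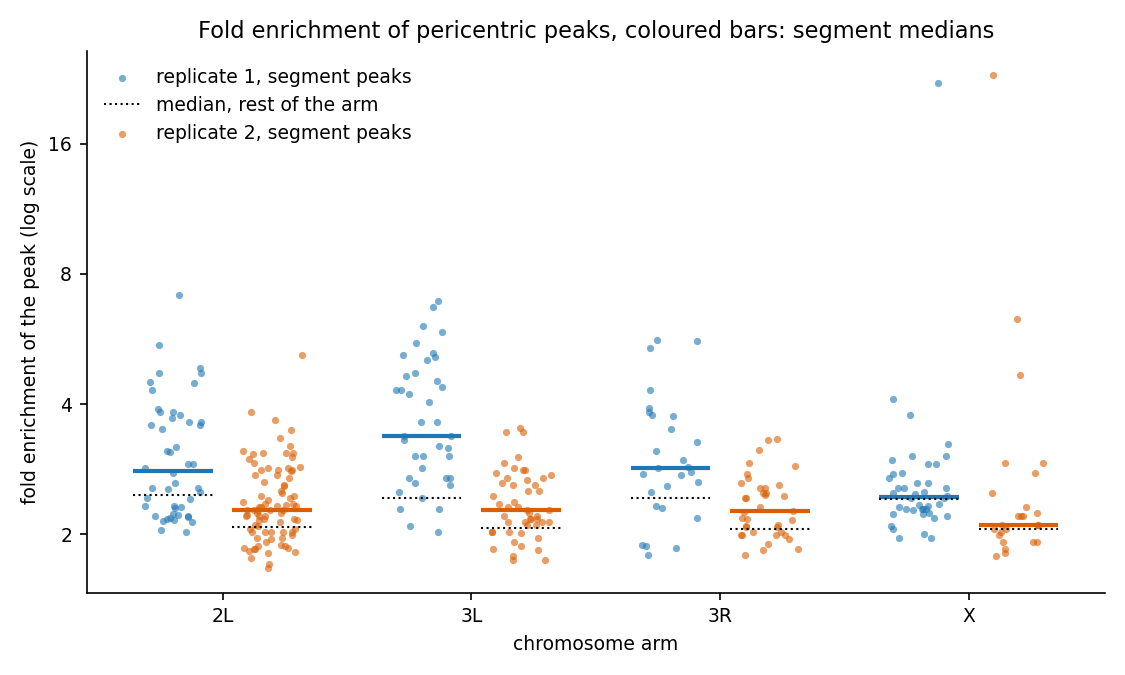
Fold enrichment of each pericentric peak (log axis) by chromosome arm and replicate, with coloured bars at the segment medians and dotted lines at the medians of the rest of the same arm. The segment median lies above the dotted line in each arm and replicate, least on X, at 2.44 against 2.41 and 2.10 against 2.06. The single pair above 20 is the narrow X peak.

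The solved background under these peaks was lower, and over the 4 arms together their median pileup was not higher. The solved background equalled the genome-wide value, within 0.05 fragments, for 79 of 156 segment peaks (50.6%) of replicate 1, where the rest had 15.8%. It did so for 135 of 196 (68.9%) of replicate 2, where the rest had 20.5%. In either list 0 of the peaks of the 4 arms fell below that value. It thus acts as a floor here, and a lower local background at such peaks would not show. The median pileup was 49 fragments in the segments and 51 in the rest in replicate 1, and 66 and 72 in replicate 2. By arm, replicate 1 gave 54 against 51 on 2L, 53 and 53 on 3L, 62 against 54 on 3R and 38 against 41 on X. In replicate 2 the segment median was higher on no arm. With every pileup divided by the genome-wide background instead, an alternative added after the data were seen, the ratio of the median folds was 0.962 and 0.918. The direction of the pooled fold difference turned with the choice of background, and this alternative was not computed by arm.

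**Figure D3:**
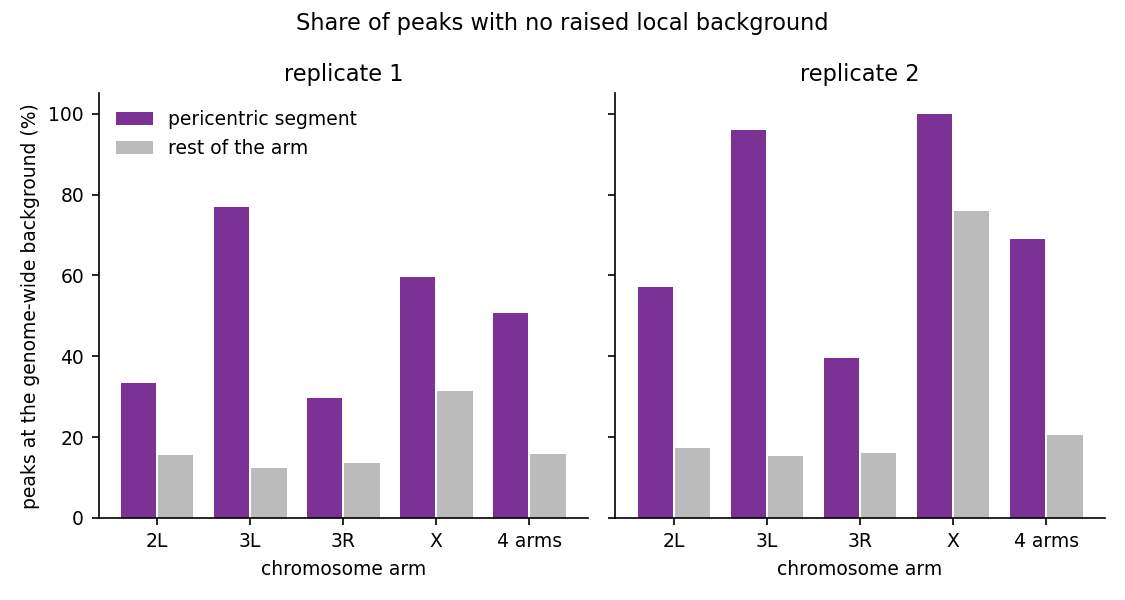
Percentage of peaks whose solved background equals the genome-wide value, by arm, in the pericentric segments (purple) and the rest of the arm (grey), for each replicate. On 3L the shares are 76.9 and 95.9% in the segment against 12.4 and 15.4% in the rest, and on X 59.5 and 100.0% against 31.4 and 75.9%.

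Widths gave no stable difference. The median width was 295.5 bp in the segments and 274 bp in the rest in replicate 1, and 256.5 and 250 bp in replicate 2, a mean difference of 14.0 ± 10.6 bp (SD, n = 2). On 3L the difference was 106 bp in replicate 1 and -39 bp in replicate 2. On 2L it was 90.5 and 37 bp, on 3R 52 and 51.5 bp, and on X -7.5 and -26 bp. Peaks wider than 1 kb made up 16 of the segment peaks (10.3%) in replicate 1 and 5 (2.55%) in replicate 2, against 2.01 and 0.803% of the rest.

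Segment peaks were less often shared when counted from replicate 1. Of its 156 segment peaks, 96 overlapped a replicate 2 peak (61.5%), against 78.4% in the rest and 78.1% over all peaks of the 4 arms. Of the 196 segment peaks of replicate 2, 102 overlapped a replicate 1 peak (52.0%), against 44.6% in the rest and 44.7% over all. The difference lay mainly on X, with 13 of 42 shared (31.0%, against 46.6% in the rest of X), and on 3L (59.0 against 83.0%). It was smaller on 2L (81.2 against 82.9%) and 3R (77.8 against 82.0%). Unshared segment peaks were lower than shared ones in their own lists, with median folds of 2.49 against 3.04 and of 2.10 against 2.51.

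A stretch of X, picked out after its values were seen, carried many of the unshared peaks. Between 22487180 and 22542024, from l(1)G0196 to CG17600, replicate 1 listed 12 peaks and replicate 2 listed 1, and 1 of the 12 was shared. Replicate 1 held 42 peaks on the X segment and replicate 2 held 25. X was the single arm of the 4 on which the deeper list had fewer segment peaks. In the rest of X the counts were 1292 and 1421.

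Signal in shared segment peaks was also divided differently between the libraries. The median ratio of replicate 2 to replicate 1 in fold enrichment was 0.788 over 96 shared segment peaks and 0.916 over 8631 in the rest. On 3L it was 0.606 over 23 peaks against 0.921, with a pileup ratio of 1.10 against 1.58 and a width ratio of 0.437 against 1.06. On 3R the fold ratio was 0.879 against 0.922, on 2L 0.818 against 0.910 and on X 0.817 against 0.878. The background ratio of the same 3L pairs was 1.96 against 1.78 in the rest of 3L, and its part in the lower fold ratio was not tested.

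The highest segment peak, with fold enrichments of 22.1 and 23.0, exceeded the highest replicate 1 peak of the rest of the arms, at 9.44, and every replicate 2 peak there. It lay at X:22433026-22433171 in replicate 1 and X:22433028-22433171 in replicate 2, with 326 and 646 fragments at the summit. It was 146 and 144 bp wide, narrower than the lower quartile of segment widths, and the nearest protein-coding gene, CG14621, lay 11056 bp away. Its background was the genome-wide 13.8 and 27.1 fragments. Another intergenic X peak, at X:23222263-23222538, had 60 fragments in replicate 1 and 176 in replicate 2, with fold enrichments of 4.11 and 6.29. It lies within the 90.9 kb stretch, from 23200802 to 23291729, that holds the 17 annotated ribosomal RNA features of X. That stretch held 1 peak in replicate 1 and 2 in replicate 2. Neither peak is at a protein-coding gene, and whether repeated sequence lies under them was not tested.

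Of the other 8 among the 10 highest shared peaks, 7 lay at genes. The peak at cta was at 2L:22981823-22982848, with 140 and 145 fragments and fold enrichments of 7.14 and 5.19. The peak at Spf30, a splicing factor gene, was at 3L:23715102-23716291 (6.91 and 3.52). CG40160 held one in its interior at 3L:26222877-26223769 (5.87 and 3.45). Set1 and MED21 shared the peak at 3L:25115259-25115843 (5.13 and 3.45), CG17493 had one at 2L:22550214-22551157 (5.49 and 3.34), and CG40006 one at 2L:22755392-22756746 (3.78 and 3.67). Gfat1 held an interior peak at 3R:4127545-4127976 (3.75 and 3.31). The remaining one lay between genes at 2L:22569987-22570842 (4.32 and 3.09), 8230 bp from Slmap. The widest shared peak covered 1657 and 1838 bp inside Marf1, at 2L:22366276-22367932 (3.64 and 3.02), and the next widest spanned most of the 1.51 kb gene Spf45 (4.48 and 2.84).

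Relative to genes, segment peaks lay at gene ends in 73 of 156 cases (46.8%) in replicate 1 and in 64 of 196 (32.7%) in replicate 2, against 34.1 and 32.1% in the rest. Gene interiors held 38.5 and 38.3%, against 51.3 and 52.7%. Intergenic sequence held 14.7 and 29.1%, against 14.6 and 15.3%. The lower share inside genes was present in both lists. Gene ends stood out in replicate 1 alone and intergenic sequence in replicate 2 alone. Gene-end peaks were the highest class, with median folds of 3.37 and 2.47 in the segments and 2.56 and 2.12 in the rest.

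Of the 131 pericentric protein-coding genes, 44 were marked (33.6%), against 37.2% of all 10991 protein-coding genes of the 4 arms and 37.3% of those in the rest. The 95% Wilson interval of the segment share, which covers counting error only, ran from 26.1 to 42.0% and takes in both figures. By a peak anywhere in the gene or within 500 bp of it, 61 of 131 genes (46.6%) were marked, against 48.0% of all. No peak in either list touched 43 of the 131 genes (32.8%), against 28.5% in the rest. The total share of marked genes, without regard to gene length, was therefore near the background. By arm it varied, with 17 of 37 on 2L (45.9%, against 38.6% in the rest of the arm), 13 of 42 on 3L (31.0 against 45.5%), 8 of 14 on 3R (57.1 against 44.4%) and 6 of 38 on X (15.8 against 14.2%).

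The replicates disagreed on which part of the genome holds more genes with a peak. Replicate 1 had a gene-end peak at 67 segment genes (51.1%) and at 41.0% of the genes in the rest. Replicate 2 had one at 53 (40.5%) and at 58.7%. In the segments, 23 genes had such a peak in replicate 1 alone and 9 in replicate 2 alone, while in the rest these counts were 406 and 2328. X gave 11 of the 23 and 3L gave 9.

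**Figure D4:**
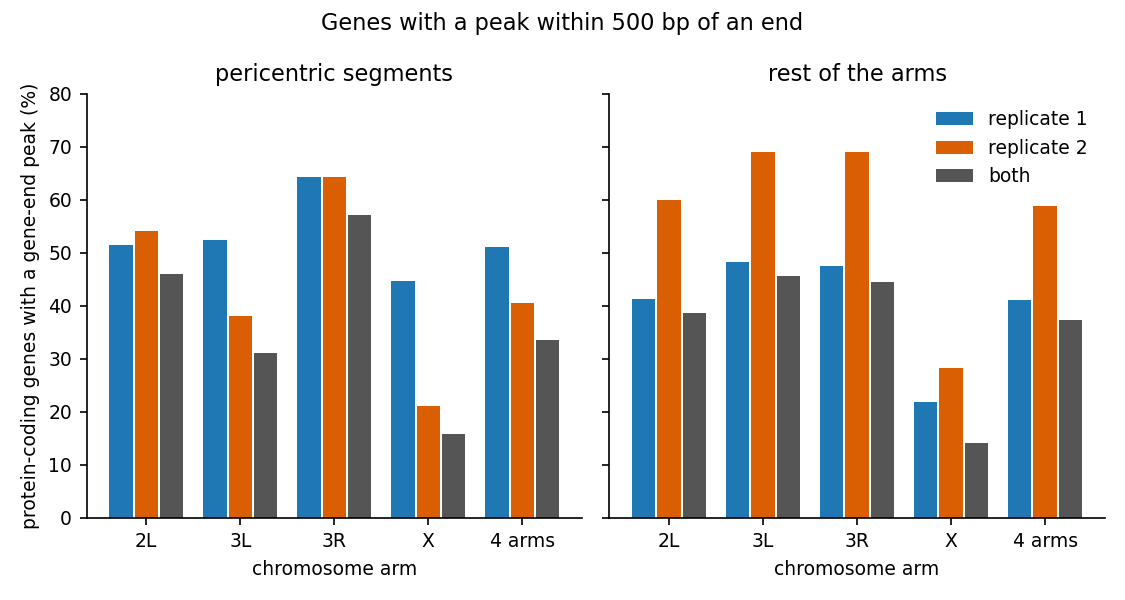
Percentage of protein-coding genes with a peak within 500 bp of an end, in replicate 1, replicate 2 and both, by arm, for the pericentric segments (left) and the rest of the arms (right). In the rest the bar of replicate 2 is the tallest in each arm. In the segments that of replicate 1 is taller on 3L (52.4 against 38.1%) and X (44.7 against 21.1%).

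Pericentric genes were long, with a median of 6.30 kb against 2.16 kb in the rest, and 14 of the 131 spanned over 50 kb. The longest class was marked at its ends in 2 of 14 cases (14.3%), against 22.6% of the 234 genes of that length in the rest. Among genes of 10 to 50 kb, 15 of 35 were marked (42.9 against 35.2%), among those of 2 to 10 kb 16 of 44 (36.4 against 46.1%), and among those under 2 kb 11 of 38 (28.9 against 31.1%).

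Longer genes more often hold a peak somewhere along them, so the count by whole gene was also read within length classes. It was lower in the segments in each class, at 28.9 against 31.6% under 2 kb, 52.3 against 59.1% from 2 to 10 kb, 57.1 against 72.7% from 10 to 50 kb and 50.0 against 71.4% above. With the arms pooled, the near-equal totals of 46.6 and 48.1% thus combine lower shares with longer genes. By arm, without length classes, the share was higher in the segments on 2L (59.5 against 48.6%), 3R (57.1 against 54.5%) and X (34.2 against 28.2%). It was lower on 3L (42.9 against 55.4%). The longest class holds 14 segment genes, and length and arm were not separated.

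Among the 44 marked genes, the highest gene-end peak had a median fold of 3.84 and 2.72 in the first and second list. The marked genes of the rest had 2.73 and 2.39. The highest gene-end peaks overlapped between the lists in 37 of the 44, and some pair of gene-end peaks did so in 40. The other 4 were vtd, Rab21, CG17163 and CG17168. In 42 of 44 the fold was higher in replicate 1, against 75.7% of 4048 in the rest. The exceptions were tio and nrm.

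Genes named as heterochromatic in earlier work, from a list of 29 matched genes, included 20 that lie in the segments. Of these 20, 9 were marked, beside 44 of all 131 segment genes (33.6%). The 9 were cta, lt, Gpb5, vtd, RpL15, Parp1, Set1, Alg-2 and fog. Of the other 11, RpL5 and scro had a gene-end peak in replicate 2 alone, Dbp80, AGO3 and su(f) in replicate 1 alone, and nvd, Snap25, stnA, stnB, Pzl and CG40470 in neither. In all, 49 segment genes with well-known roles, some of them on that list, were sorted by role after their values had been seen, and 25 of them were marked, as were 19 of the other 82 genes. Neither grouping is independent of the data, and the counts describe these genes only.

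Signalling genes were marked in 4 of 6 cases, where 33.6% of all segment genes were. The gene cta encodes the G protein alpha subunit that relays the Fog signal to the cell cortex in epithelial folding, and its peak was the highest gene-end peak of the segments in both lists, at 7.14 and 5.19. The gene of the ligand itself, fog, lies on the X segment. Its peak covered X:22855208-22855455 with 44 fragments in replicate 1 and X:22855208-22855424 with 58 in replicate 2, a fold enrichment of 3.04 and 2.10. The same peak lay inside the overlapping gene CG42346. Slmap, of a phosphatase complex, had 4.72 in replicate 1 at one end and 2.13 in replicate 2 at the other, where replicate 1 held an overlapping peak of 2.16. Gpb5, a glycoprotein hormone subunit, had its highest gene-end peak (3.84 and 2.99) within 500 bp of its end but inside the neighbouring gene Tim23. That peak counts for both genes. The peaks over Gpb5 itself had 2.23 and 2.17. CkIIalpha, the casein kinase 2 catalytic subunit, had a gene-end peak of 2.70 in replicate 1 and none in replicate 2, but a peak in its interior in both (5.06 and 2.70). S6kII, a ribosomal S6 kinase, had an interior peak of 2.34 in replicate 1 alone.

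Chromatin and transcription genes were marked in 7 of 9 cases, against the same 33.6% of segment genes. Set1 encodes a histone H3 lysine 4 methyltransferase and MED21 a Mediator subunit, and their shared peak held 80 fragments in replicate 1 and 96 in replicate 2. Parp1 had 63 and 68 fragments. The cohesin subunit gene vtd had 3.04 and 2.17, from peaks on neighbouring positions that did not overlap. Clamp, whose protein binds GA repeats and brings the dosage compensation complex to the male X, had 3.10 and 2.82. Tif-IA, an RNA polymerase I factor, had 3.71 and 2.20. The zinc finger gene tio had 40 fragments in replicate 1 and 107 in replicate 2, a fold enrichment of 2.77 and 3.84, among the few that were higher in the second list. CycK (2.45) and the homeobox gene scro (2.60) had a gene-end peak in replicate 2 and none in replicate 1.

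Of 29 listed heterochromatin machinery genes, including HP1 and histone methyltransferase genes, 14 were marked (48.3%, against 39.3% of all protein-coding genes). The list is not limited to genes of HP1-packed heterochromatin. It also takes in Set1, E(z), Su(z)12 and pho, all of them marked. The share without these genes was not computed, so the higher share is not assigned to HP1-packed heterochromatin. Set1 and Parp1 are the 2 of the 29 that lie in the segments. Among those that lie elsewhere, the gene of HP1a had a gene-end peak of 1.90 in replicate 1 and none in replicate 2.

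Translation genes were marked in 3 of 5 cases and mitochondrial genes in 5 of 8, beside 33.6% of all segment genes. RpL10 had fold enrichments of 4.52 and 2.74, RpL21 3.84 and 2.81, and RpL15 3.04 and 2.13. RpL5 had a gene-end peak of 1.92 in replicate 2 and none in replicate 1. The initiation factor gene eIF4B, at 3L:27842669-27858271, had no peak in either list. Of 8 mitochondrial genes, replicate 1 had a gene-end peak at 8 and replicate 2 at 5. The mitochondrial ribosomal gene mRpS5 had 5.53 and 2.70, Tim17b, an inner membrane translocase subunit, 5.40 and 1.99, UQCR-11, of respiratory complex III, 5.19 and 2.77, and Nubpl, of complex I assembly, 4.72 and 2.84. The respiratory chain genes ND-MLRQ (3.30) and ND-AGGG (4.38) and Coa7 (2.50), of cytochrome oxidase assembly, had such a peak in replicate 1 and none in replicate 2.

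**Figure D5:**
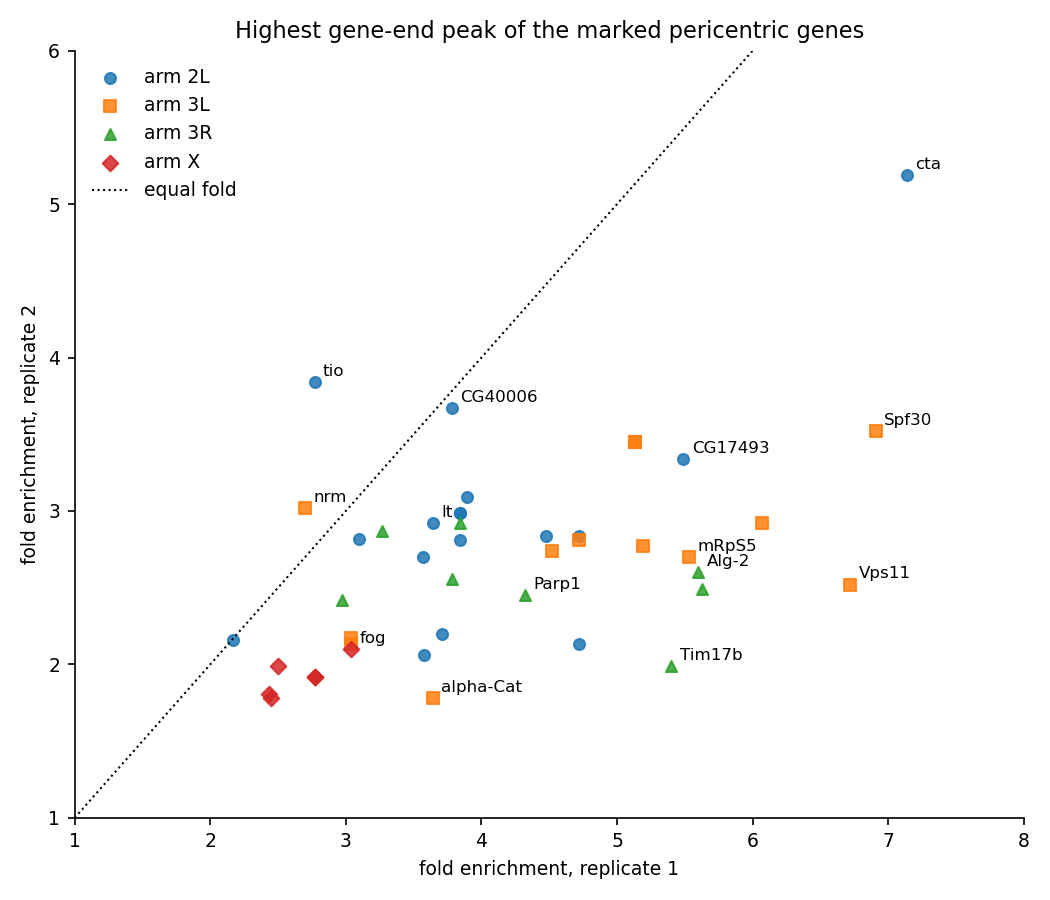
Fold enrichment of the highest gene-end peak in replicate 1 (x axis) and replicate 2 (y axis) for the 44 marked pericentric genes, by arm, with the line of equal fold dotted. The genes tio and nrm lie above the line and cta is highest on both axes, at 7.14 and 5.19. Genes of 3L such as Vps11 (6.72 and 2.52) lie far to the right.

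Vesicle traffic genes, those of synaptic vesicles left out, were marked in 3 of 3 cases. RNA processing genes were marked in 2 of 4. Both groups are too small to set against the 33.6% of all segment genes. The gene lt encodes a Vps41 protein of the endolysosomal tethering complex and gave the light eye colour mutants. Its peak at 2L:22924845-22925695 held 53 and 81 fragments, a fold enrichment of 3.64 and 2.92. Vps11, of the same complex, had 104 fragments in replicate 1 and 70 in replicate 2, a fold of 6.72 and 2.52, from a peak 1584 bp wide in the first list and 348 bp in the second. The wide peak also covers part of the antisense gene asRNA:CR45164, and CUT&RUN carries no strand to tell them apart. Rab21 had 2.50 and 1.99, from peaks that did not overlap. The splicing factor genes Spf30 and Spf45 were marked. The RNA helicase gene Dbp80 (3.37) and su(f), of mRNA 3' end cleavage (3.24), had a gene-end peak in replicate 1 and none in replicate 2. Inside su(f), replicate 2 listed a peak of 2.20.

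Among further members, Alg-2, a penta-EF-hand calcium-binding protein gene, had 82 fragments in replicate 1 and 72 in replicate 2, a fold enrichment of 5.60 and 2.60. The adherens junction gene alpha-Cat had 3.64 and 1.78, where the second value stood at the 11.7th percentile of its list. Genes known by number alone, CG17698 (6.07 and 2.92), CG41099 (5.63 and 2.49), CG12567 (3.89 and 3.09), CG42402 (3.84 and 2.92) and CG12581 (3.27 and 2.87), were marked as well. Both lists held overlapping peaks at either end of CG12581, and the highest lay at a different end in each.

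Wing cuticle is built around chitin during pupal development, and 1 of 3 chitin genes of the segments was marked (33.6% of all segment genes were). Gfat1 encodes the enzyme that commits fructose 6-phosphate to the amino sugar precursors of chitin. It carried 8 peaks in each list within its 11.4 kb or 500 bp of it, with 1.98 kb covered in both, and a gene-end fold of 3.78 and 2.56. The chitinase gene Cht10 had a gene-end peak of 2.33 in replicate 1 and none in replicate 2, and both lists held a peak inside it at 2L:23023326-23024036 (2.84 and 2.09). The chitin deacetylase gene Cda4 had 3 peaks in replicate 1, the highest at 2.76, and none in replicate 2. The most widely covered segment gene was CG42748 on 2L, with 8 peaks in replicate 1, 14 in replicate 2 and 2.20 kb covered in both lists of its 35.0 kb.

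Neuronal and sensory genes, as sorted here after the values were seen, had 0 of 7 marked, beside 33.6% of all segment genes. The count depends on the sorting. It leaves out nrm, marked at 2.70 and 3.02, and tilB, with a gene-end peak of 2.90 in replicate 1 alone. Dsk, a neuropeptide gene, had a gene-end peak of 2.17 in replicate 2 and none in replicate 1. Snap25, a SNARE gene of 225 kb, held no peak in replicate 1 and 4 unshared interior peaks in replicate 2, up to 2.81. The acetylcholine receptor gene nAChRalpha4 held no gene-end peak, and interior peaks of 4.32 and 2.24. The genes stnA and stnB, which share 1 span and act in synaptic vesicle recycling, and lovit had no peak in either list. The ionotropic receptor gene Ir40a had 1 interior peak of 1.96 in replicate 2.

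Both ecdysone synthesis genes of the segments, which act in the prothoracic gland, lacked peaks. These are nvd, the cholesterol dehydrogenase gene at 3L:24324866-24401655, and spok, the cytochrome P450 gene at 3R:3322810-3354486. Of 2 piRNA genes, AGO3 had a gene-end peak of 4.21 in replicate 1, and the overlapping replicate 2 peak of 2.60 lay 555 bp from the gene, beyond the 500 bp window. BoYb had an interior peak of 1.74 in replicate 2 and none in replicate 1. The absence of a listed peak sets no level, since values under the caller's threshold are not listed.

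Non-coding genes of the segments were marked in 9 of 47 lncRNA cases (19.1%, against 21.3% in the rest) and in 2 of 22 pseudogenes (9.09%, against 14.5%). Of 7 miRNA genes 0 were marked, against 14.3% of 196 in the rest, a count too small to tell from that share. Of the 14 ribosomal RNA pseudogenes 0 were marked, with 1 reached by a peak of 4.66 in replicate 2. Several marked lncRNA genes lay under, or within 500 bp of, a peak at a protein-coding neighbour. Among them were lncRNA:CR43765, beside the Nubpl peak (4.72 and 2.84) but not under it, and lncRNA:CR33987 at tio.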

How the data were processed

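Each of 2 biological replicates, which form 1 group per the labels, has 1 deposited peak list. Per the submitters' processing notes, the authors used Bowtie2, MACS2 and build dm6. The sources used here give no versions, caller settings, read totals, control library or treatment of duplicate and multiply mapped fragments. In the deposited lists the fold is a ratio of summit pileup to background. The authors' caller also gave a -log10 p, a -log10 q and a score, a whole number made from the -log10 q. From the fold and the -log10 p of each peak, the pileup (a whole number) and its Poisson background were computed, with a solution within 0.001 log10 units for 100% of peaks. The most frequent background was taken as genome-wide. PCR copies carry no molecular identifiers, so fragments may not be independent, and intervals cover counting error only.

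Starts, ends and summits were made 1-based. Genes came from the RefSeq table of Release 6 (dm6), which has no strand, exons or sequence, so promoters were not told from 3' ends and no sequence was read. Genes were placed by their start. Percentiles rank fold within a whole list. Python 3.11.15, pandas 2.3.3 and scipy 1.17.1 were used, and the steps were tested on simulated data. The members and lists were chosen with earlier results of these data known. Named genes followed a fixed rule: the listed heterochromatic genes, the 15 highest gene-end genes, the 8 most covered genes, the 10 highest and 5 widest shared peaks, and per arm the innermost shared peak and the longest stretch without a peak. Genes given for their role, and those at the boundaries, were added after their values were seen. Alternatives changed the caller threshold, list size, boundaries, comparison sequence, arms, replicates, density unit, gene window and overlap.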

Additional observations from a re-analysis of the deposited data

Results flagged for a closer look

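Peaks outside the chromosome arms were not part of the comparisons. The Y chromosome and its unplaced scaffolds, which are heterochromatic as well, held 9 peaks in replicate 1 and 19 in replicate 2, with median fold enrichments of 3.30 and 3.70. Other unplaced scaffolds held 18 and 23 peaks, with medians of 4.11 and 4.59 and maxima of 11.6 and 11.9. These counts drew attention because they are above the 3 that a count of 0 allows. Nothing here sets an expected count of 0 in male wings, so passing that bound does not make the counts unusual. No control library was used here to set them against. Unlike in the X segment, the deeper list held more of them.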

How the results depend on the processing

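No paired analysis was possible because the 2 replicates form 1 group. The density ratio stayed under 1 in 14 alternatives. It was 0.0511 with boundaries 500 kb nearer the centromere and 0.192 with them 500 kb farther, 0.0710, 0.138 and 0.129 without 2L, 3L or 3R, 0.148 in 10 kb windows holding a gene and 0.995 per protein-coding gene, and it ranged from 0.0782 to 0.113 over the single replicates. The fold ratio was 1.20 with the top 7230 peaks of each list, 1.19 and 1.05 with the boundaries moved inwards and outwards, 1.08 without 3L, 1.17 without X, 1.16 with shared peaks and 0.940 over the genome-wide background, where it turned. Over the single replicates it ranged from 1.09 to 1.14. The width difference was 25.5 bp with a -log10 q of at least 5, 69.0 bp with the top peaks, 26.8 bp with boundaries moved outwards, 1.50 bp against the adjacent 5 Mb, 49.5 bp without X, 27.5 bp with shared peaks and -11.2 bp without 2L, where it turned. Over the single replicates it ranged from 6.50 to 21.5 bp. The difference in marked genes, -3.69 percentage points, turned to 0.325 with the stricter threshold, 2.41 with the top peaks and 0.273 without 3L, and ranged from -18.3 to 10.1 over the single replicates. The difference in shared replicate 1 peaks, -16.8 percentage points, was -6.54 with boundaries moved outwards, and it kept its sign in 11 alternatives. The remaining causes were not tested. In 38 of 65 alternatives the value kept its sign and stayed within the replicate SD or, for shares, the Wilson interval. The single-replicate values of density, width and fold are counted among the 38. They lie within that SD by construction and say nothing about stability. Weaker peaks are not listed: the list of replicate 1 ends at a fold of 1.49 and that of replicate 2 at 1.31. The part of depth in this was not tested.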
